A study of Mus musculus with 18 samples.

Results

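Transforming growth factor beta (TGF beta) is a family of secreted ligands, and 10 of its core genes were followed here in mouse liver: the ligands Tgfb1, Tgfb2 and Tgfb3, the receptors Tgfbr1, Tgfbr2 and Tgfbr3, and the signal carriers Smad2, Smad3, Smad4 and Smad7. They were picked by gene symbol from the 54838 rows of an RNA-seq table by a rule that uses no measured value, though with earlier results of these data known, and all 10 were found in 1 row each. The table holds 6 groups of 3 samples from C57BL/6 mice aged 36 weeks. WT (wild-type) and GKO (miR-181ab1 knockout) mice each gave tumours and non-tumours, meaning liver tumours and the tissue around them, after 1 intraperitoneal dose of 25 mg/kg diethylnitrosamine (DEN, a liver carcinogen) on postnatal day 12, and untreated normal livers. GKO mice lack the microRNA cluster in every tissue, in the controls of the GKO group as well as in its tumours, and no label ties a tumour to the non-tumour tissue of the same mouse. Values are TPM, read counts scaled for gene length and library size, so levels can be compared between genes.

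TGF beta ligands are secreted in a latent form, held by binding proteins and released by integrins and proteases. The released ligand is bound by the receptor TGFBR2, at times handed over by the co-receptor TGFBR3, and TGFBR2 then activates TGFBR1, which phosphorylates SMAD2 and SMAD3. These pair with SMAD4 and enter the nucleus, and SMAD7, itself induced by the pathway, shuts the receptors off. In the liver the pathway is known for restraining hepatocyte division, for turning stellate cells into matrix-producing cells, and for roles in both restraint and progression of liver cancer.

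The miR-181ab1 cluster encodes miR-181a and miR-181b. Their mature sequences (RefSeq, GRCm38.p6, chromosome 1, plus strand, 137966468 to 137966490 and 137966650 to 137966673) are shown because a target is recognised through the seed, bases 2 to 8, given in capitals, which both share.
mmu-miR-181a-5p: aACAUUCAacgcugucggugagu
mmu-miR-181b-5p: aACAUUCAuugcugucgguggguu
The 3′ untranslated region (UTR) of each of the 10 genes was searched, on the transcript strand, for the complement of the seed, TGAATGT (a 7mer-m8 site), and for that word followed by A, TGAATGTA (an 8mer site). Tgfbr1 held 2 8mer sites in 4154 bases of UTR, at bases 416 and 1164. Tgfbr3 held 1 7mer-m8 site in 3069 bases, at base 2158, and Smad7 held 1 in 1570 bases, at base 1512. The printed stretches show these sites in capitals, with Tgfbr1 on the plus strand of chromosome 4 (sites at 47411193 to 47411200 and 47411941 to 47411948) and Tgfbr3 on the minus strand of chromosome 5 (107107475 to 107107481), in mm10.
Tgfbr1 first site: ttggttcacttTGAATGTActgttctataa
Tgfbr1 second site: tatagttaataTGAATGTAcaagtgtaggt
Tgfbr3 site: atattggaaaaTGAATGTcctttagtatt
The other 7 genes held neither word. Among all genes with a 3′ UTR within 20% of the length of that of Tgfbr1, 39.3% held a site, against 32.0% at the length of Tgfbr3 and 20.5% at that of Smad7. A match of letters is a description and shows no binding.

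Reads recovered from the TPM ranged from 11925055 to 20751348 per library. Mir181a-1 and Mir181b-1 themselves were listed at 0 TPM in every library but 1, GKO tumour 3, which had 1 read of Mir181a-1, so the table cannot check the knockout. All 10 hepatocyte markers examined were above 0 in all 18 samples. WT non-tumour 2 and WT tumour 3 stood apart from their own groups (Pearson r of log2(TPM + 1) with the other replicates from 0.919 to 0.933, against 0.941 or more for all other pairs), and the counts of genes called between tumours and non-tumours that rest on them are also given without both, a choice made after the data were seen. The labels do not say whether replicates are separate animals (the study counts its tumour and non-tumour mRNA samples in mice per group, without naming these libraries), so p-values measure the spread between these samples. Differences were tested with limma on log2(TPM + 1), leaving out genes whose mean over the samples compared was under 0.5 TPM, and a gene was called where its p, adjusted by Benjamini-Hochberg over all genes tested, was under 0.05.

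To describe which TGF beta genes differ between DEN-induced tumours and the liver around them, tumours were compared with non-tumours in 12 samples with a term for genotype. 4 of the 10 genes rose in tumours and 0 fell: the receptor Tgfbr2, the ligands Tgfb2 and Tgfb3, and Smad2. Of all 14106 genes tested, 20.1% were called, 12.2% as higher. Tgfb2 and Tgfb3 averaged 0.218 and 0.421 TPM in non-tumours, under the filter of 0.5 TPM. They were tested only because of their tumour values (means of 0.896 and 1.67 TPM). On the log2(TPM + 1) scale Tgfbr2 had the largest difference of the 10, whereas limma voom on recovered reads gave 2.59 for Tgfb2 and 2.23 for Tgfbr2 (log2). 7 of the 10 had an unadjusted p under 0.05, against 35% of all genes. Tgfb1, Tgfbr1 and Smad3 were the 3 of these that were not called, and Tgfbr3, Smad4 and Smad7 reached neither threshold. The median difference of the 10 genes was 0.42 on the log2(TPM + 1) scale, against 0.08 over all genes tested. Without both WT non-tumour 2 and WT tumour 3 the count was again 4, of the same genes.

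**Figure D1:**
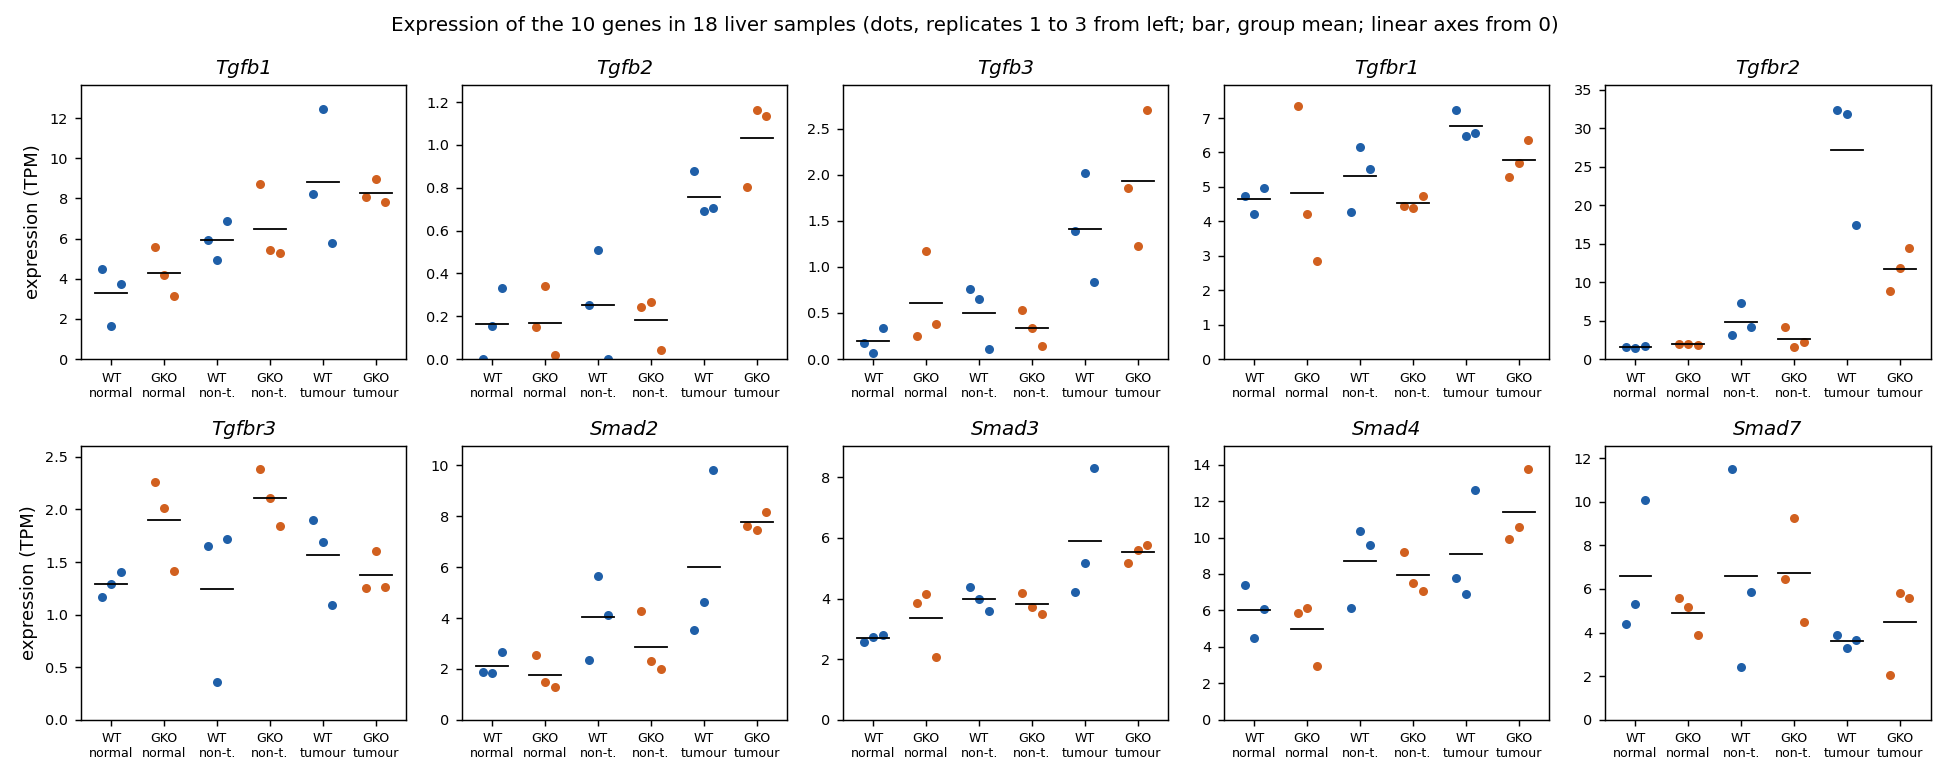
TPM of each of the 10 genes (y axis, linear and from 0) in the 6 groups (x axis; non-t., non-tumour), with a dot for each sample and a bar for the group mean; blue is WT and orange is GKO. All 6 tumours lie above all 6 non-tumours for Tgfbr2, Tgfb2 and Tgfb3, and the 3 GKO tumours lie below the 3 WT tumours for Tgfbr2.

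Among the ligands, Tgfb1, which encodes TGF beta 1 (chromosome 7 of mm10, 25687002 to 25705077), was the most abundant in every group. It was at 4.47, 1.63 and 3.74 TPM in WT normal livers and at 5.58, 4.18 and 3.12 TPM in GKO normal livers. Non-tumours had 5.91, 4.93 and 6.87 TPM in WT and 8.74, 5.42 and 5.29 TPM in GKO. Tumours had 8.23, 12.5 and 5.77 TPM in WT and 8.09, 8.95 and 7.80 TPM in GKO, so that only WT tumour 2 and GKO tumour 2 lay above the range of the non-tumours. By group mean Tgfb1 stood highest in WT tumours and lowest in WT normal livers, and every pair of neighbours in that order overlapped. Tumours against non-tumours gave a difference of 0.40 ± 0.18 (SE) on the log2(TPM + 1) scale (limma, unadjusted p 0.0482, adjusted p 0.140).

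Tgfb2 (chromosome 1, 186622792 to 186705989) encodes TGF beta 2 and was close to the limit of detection outside tumours. Normal livers had 0, 0.155 and 0.331 TPM in WT and 0.148, 0.343 and 0.0203 TPM in GKO. Non-tumours had 0.252, 0.508 and 0 TPM in WT and 0.243, 0.264 and 0.0428 TPM in GKO, from 0 to 24 reads a library. In tumours it was at 0.877, 0.694 and 0.704 TPM in WT and at 0.804, 1.16 and 1.14 TPM in GKO, from 33 to 55 reads. Every tumour thus exceeded every non-tumour and every normal liver. Mean TPM was 4.11-fold higher in tumours than in non-tumours, and the difference on the log2(TPM + 1) scale, which understates the change of a gene this low, was 0.64 ± 0.14 (SE, limma, adjusted p 0.00766).

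Tgfb3 (chromosome 12, 86056745 to 86079041), the third ligand, was also low outside tumours. It was at 0.174, 0.0665 and 0.340 TPM in WT normal livers and at 0.253, 1.17 and 0.382 TPM in GKO normal livers. Non-tumours had 0.755, 0.652 and 0.106 TPM in WT and 0.529, 0.340 and 0.147 TPM in GKO. Tumours had 1.39, 2.02 and 0.837 TPM in WT and 1.86, 1.23 and 2.701 TPM in GKO. All 6 tumours were above all 6 non-tumours, while GKO normal liver 2 reached into the tumour range. Mean TPM was 3.97-fold higher in tumours than in non-tumours (log2(TPM + 1) difference 0.90 ± 0.19 SE, limma, adjusted p 0.00767). Exons of Tgfb2 and Tgfb3 share 2.14% (Tgfb2) and, for the larger of 2 overlaps, 7.60% (Tgfb3) of their bases with genes annotated on the other strand, and whether counting used the strand is not given in the sources used here.

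Tgfbr2, the receptor that binds the ligand (chromosome 9, 116084293 to 116175360), spanned the widest range of the 10 genes in absolute TPM. It was at 1.51, 1.48 and 1.66 TPM in WT normal livers and at 1.94, 1.99 and 1.77 TPM in GKO normal livers. Non-tumours had 3.14, 7.30 and 4.16 TPM in WT and 4.15, 1.54 and 2.27 TPM in GKO. Tumours had 32.4, 31.8 and 17.4 TPM in WT and 8.86, 11.9 and 14.4 TPM in GKO. In order of group mean, WT tumours (27.2 ± 8.51 TPM, SD, n = 3) were above GKO tumours (11.7 ± 2.80), and both were above WT non-tumours (4.87 ± 2.17) with no overlap. GKO non-tumours (2.66 ± 1.34) overlapped both of their neighbours in that order, WT non-tumours above and GKO normal livers (1.90 ± 0.117) below, and WT normal livers (1.55 ± 0.0956) came last, with no overlap with GKO normal livers. Mean TPM was 5.17-fold higher in tumours than in non-tumours, a difference of 2.06 ± 0.25 (SE) on the log2(TPM + 1) scale (limma, adjusted p 0.000239). Tgfb2, Tgfb3 and Tgfbr2, 3 of the 10 genes, had no overlap between the 6 tumours and the 6 non-tumours, as did 7.86% of all genes tested. Tgfb2 and Tgfb3 passed the filter of 0.5 TPM only through the tumours.

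Tgfbr1 (chromosome 4, 47353222 to 47414931), the receptor kinase that acts on SMAD2 and SMAD3 and whose UTR holds the 2 sites printed above, differed less between groups than Tgfbr2 did. Normal livers had 4.73, 4.22 and 4.96 TPM in WT and 7.36, 4.22 and 2.86 TPM in GKO. Non-tumours had 4.28, 6.17 and 5.52 TPM in WT and 4.44, 4.38 and 4.75 TPM in GKO, and tumours had 7.22, 6.48 and 6.57 TPM in WT and 5.30, 5.71 and 6.38 TPM in GKO. Tumours were above non-tumours within each genotype without overlap, but GKO tumours 1 and 2 fell inside the range of WT non-tumours. The difference over both genotypes was 0.30 ± 0.12 (SE) on the log2(TPM + 1) scale (limma, unadjusted p 0.0236, adjusted p 0.0883), and 0.17 with the samples centred on their medians.

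Tgfbr3 (chromosome 5, 107106570 to 107289629) encodes betaglycan, the co-receptor. It was at 1.17, 1.29 and 1.41 TPM in WT normal livers, 2.26, 2.01 and 1.42 TPM in GKO normal livers, 1.65, 0.355 and 1.72 TPM in WT non-tumours and 2.38, 2.11 and 1.84 TPM in GKO non-tumours. WT tumours had 1.90, 1.69 and 1.09 TPM and GKO tumours 1.26, 1.61 and 1.27 TPM. It was the only receptor of the 3 whose GKO tumours lay below the GKO non-tumours, without overlap. The low value of 0.355 TPM came from WT non-tumour 2. Another gene annotated on the same strand shares 4.54% of its exonic bases.

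Smad2 (chromosome 18, 76241580 to 76310963), which carries the signal with SMAD3, was at 1.87, 1.84 and 2.65 TPM in WT normal livers and 2.55, 1.47 and 1.29 TPM in GKO normal livers. Non-tumours had 2.37, 5.66 and 4.11 TPM in WT and 4.28, 2.30 and 1.99 TPM in GKO. Tumours had 3.54, 4.63 and 9.83 TPM in WT and 7.62, 7.48 and 8.17 TPM in GKO, so the GKO tumours sat close together while the WT tumours spread over the range from non-tumours to the highest value of all. The difference over both genotypes was 0.83 ± 0.26 (SE) on the log2(TPM + 1) scale (limma, adjusted p 0.0453). This call was narrow: with median centring of the samples the adjusted p was 0.0566, and without WT tumour 3 it was 0.0819.

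Smad3 (chromosome 9, 63646767 to 63757994) was at 2.58, 2.74 and 2.78 TPM in WT normal livers and 3.86, 4.14 and 2.08 TPM in GKO normal livers, at 4.37, 3.999 and 3.58 TPM in WT non-tumours and 4.19, 3.73 and 3.49 TPM in GKO non-tumours. Tumours had 4.21, 5.18 and 8.30 TPM in WT and 5.18, 5.60 and 5.78 TPM in GKO, with only WT tumour 1 inside the range of the non-tumours. The difference was 0.44 ± 0.15 (SE) on the log2(TPM + 1) scale (limma, unadjusted p 0.0110, adjusted p 0.0531).

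Smad4, the shared partner (chromosome 18, 73639009 to 73703780), had 7.42, 4.49 and 6.09 TPM in WT normal livers and 5.87, 6.12 and 2.98 TPM in GKO normal livers. Non-tumours had 6.13, 10.4 and 9.59 TPM in WT and 9.22, 7.50 and 7.08 TPM in GKO, and tumours 7.79, 6.92 and 12.6 TPM in WT and 9.91, 10.6 and 13.8 TPM in GKO. WT tumours overlapped WT non-tumours, whereas GKO tumours lay above GKO non-tumours. In WT the highest tumour for Smad2, Smad3 and Smad4 alike was WT tumour 3, the library that stood apart.

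Smad7, the inhibitor (chromosome 18, 75367529 to 75395935), had 4.40, 5.33 and 10.1 TPM in WT normal livers, 5.57, 5.19 and 3.87 TPM in GKO normal livers, 11.5, 2.44 and 5.84 TPM in WT non-tumours and 6.44, 9.26 and 4.47 TPM in GKO non-tumours. Tumours had 3.91, 3.31 and 3.66 TPM in WT and 2.06, 5.81 and 5.58 TPM in GKO. By mean TPM, tumours stood at 0.609 of non-tumours, but the values of non-tumours spread more than 4-fold within WT and the groups overlapped in both genotypes.

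Within WT, 1 of the 10 genes rose in tumours, Tgfbr2, by 2.28 ± 0.36 (SE) on the log2(TPM + 1) scale (limma, adjusted p 0.0201), where 4.23% of all genes were called and 2.16% as higher. This call was lost without WT non-tumour 1 or 3 or WT tumour 1 or 2 (adjusted p from 0.0797 to 0.0949), and without both WT non-tumour 2 and WT tumour 3 the count was again 1, with a difference of 2.84 (adjusted p 0.00194). Tgfb2 (0.51 ± 0.23, adjusted p 0.286), Tgfb3 (0.68 ± 0.29, adjusted p 0.250) and Tgfbr1 (0.31 ± 0.20, adjusted p 0.449) were above non-tumours without overlap and were not called. Without WT non-tumour 1 the difference of Tgfbr1 was 0.18. In this comparison 24.8% of all genes tested had groups that did not overlap and 19.9% an unadjusted p under 0.05. Tgfb2, at a mean of 0.253 TPM in WT non-tumours, passed the filter only through the tumours.

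Within GKO, 4 of the 10 genes rose in tumours and 0 fell, where 11.7% of all genes were called and 7.75% as higher. They were Tgfbr2 (1.84 ± 0.31 SE on the log2(TPM + 1) scale, limma, adjusted p 0.0148), Smad2 (1.23 ± 0.25, adjusted p 0.0264), Tgfb3 (1.11 ± 0.25, adjusted p 0.0327) and Tgfb2 (0.78 ± 0.19, adjusted p 0.0430). Tgfb2 and Tgfb3, at means of 0.183 and 0.338 TPM in GKO non-tumours, passed the filter only through the tumours. The median of all genes tested was itself 0.20 higher in GKO tumours. With the samples centred on their medians the differences were 1.60 for Tgfbr2, 0.99 for Smad2, 0.87 for Tgfb3 and 0.55 for Tgfb2, and the adjusted p of Tgfb2 became 0.117. Tgfbr1 (0.30), Smad3 (0.44, unadjusted p 0.0420) and Smad4 (0.47) were above non-tumours and Tgfbr3 (-0.39) was below them, without overlap and without a call. Centred on the medians, these differences were 0.06, 0.21, 0.24 and -0.62 in the same order. By mean TPM, GKO tumours were above GKO non-tumours 5.70-fold for Tgfb3, 5.64-fold for Tgfb2 and 4.41-fold for Tgfbr2. Groups did not overlap for 38.3% of all genes in this comparison, and 31.7% had an unadjusted p under 0.05. The count of 4 fell to 0 without GKO non-tumour 3 or GKO tumour 3.

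**Figure D2:**
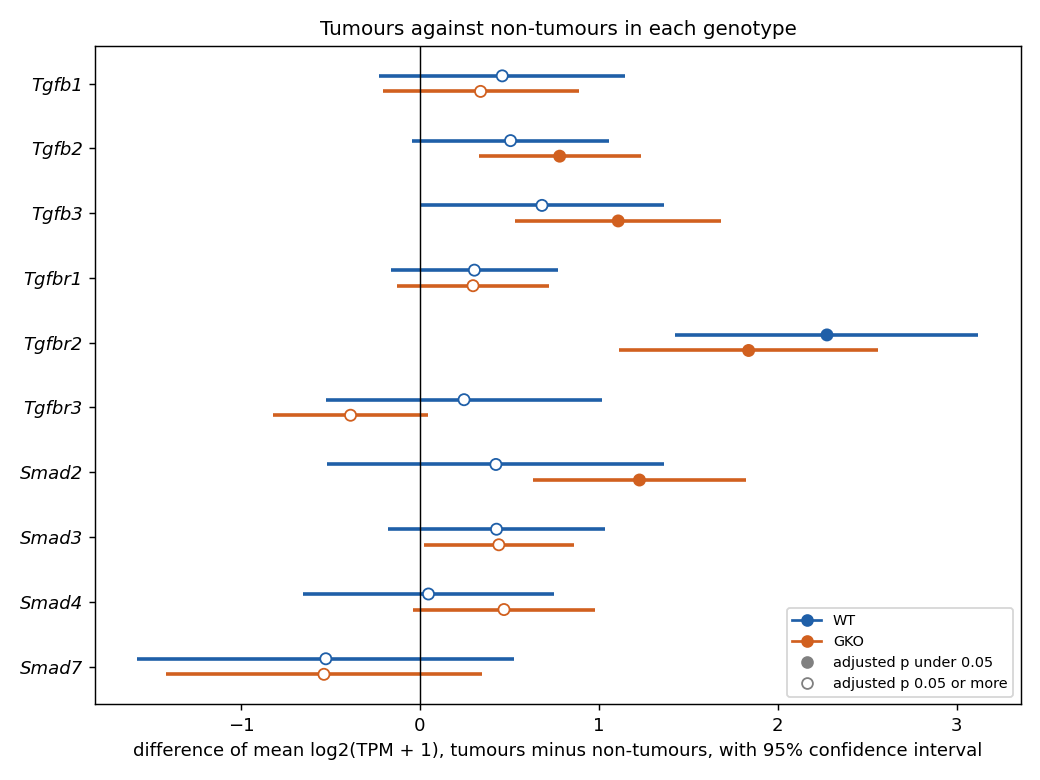
Fitted difference of each of the 10 genes between tumours and non-tumours on the log2(TPM + 1) scale (x axis) with its 95% confidence interval, in WT (blue) and GKO (orange); filled points have an adjusted p under 0.05. Tgfbr2 is filled in both genotypes, and Tgfb2, Tgfb3 and Smad2 are filled in GKO.

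A call in one genotype and not in the other does not show that the genotypes differ. The difference of the tumour effect between genotypes was therefore tested as an interaction in the 12 samples. 0 of the 10 genes were called, and 0 had an unadjusted p under 0.05, where 0.0142% of all genes were called and 10.5% had an unadjusted p under 0.05. The 10 interaction terms ran from -0.63 for Tgfbr3 (unadjusted p 0.115) to 0.80 for Smad2 (unadjusted p 0.132), with adjusted p from 0.513 to 0.996. For Tgfbr2, a gene singled out with its values known, the term was -0.44 with a 95% interval from -1.53 to 0.66, an interval that holds differences of over 1 log2 unit. Without both WT non-tumour 2 and WT tumour 3 again 0 of the 10 were called, and the terms were -1.003 for Tgfbr2 (unadjusted p 0.0455, limma, adjusted p 0.325) and 0.94 for Smad2 (unadjusted p 0.0402, adjusted p 0.313).

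To see whether loss of the microRNAs went with other levels of these genes in tumours, GKO tumours were compared with WT tumours, which shares the tumour samples with the comparisons above. The receptor Tgfbr2 was the gene with the clearest separation. All 3 GKO tumours, at 8.86 to 14.4 TPM, lay below all 3 WT tumours, at 17.4 to 32.4 TPM, and the mean of GKO tumours was 0.431 of that of WT tumours. The fitted difference was -1.12 ± 0.31 (SE) on the log2(TPM + 1) scale, with an unadjusted p of 0.00874 and an adjusted p of 0.416 (limma), so the gene was not called. No gene of the 10 was called (0 of 10), and 1 of 10 had an unadjusted p under 0.05, where 0.0215% of all 13964 genes were called (3 genes), 8.87% had an unadjusted p under 0.05 and 14.7% had groups that did not overlap. On reads recovered from the TPM, limma voom called 0 of the 10 as well. Across all alternatives the difference of Tgfbr2 stayed between -1.40 and -0.95, with adjusted p from 0.0724 (without WT tumour 3) to 0.987.

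Tgfbr1 was also lower in GKO tumours without overlap, at 5.30 to 6.38 TPM against 6.48 to 7.22 TPM, but by only -0.19 ± 0.19 (SE, limma, adjusted p 0.766). The other 8 genes overlapped between GKO and WT tumours.

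**Figure D3:**
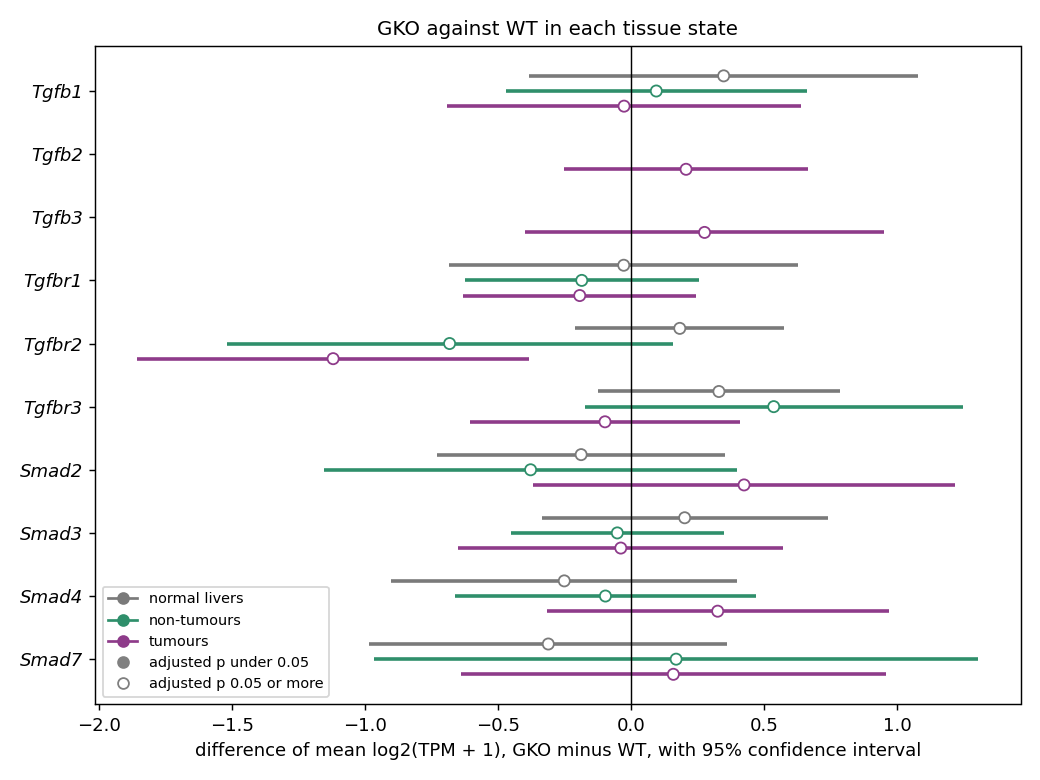
Fitted difference between GKO and WT on the log2(TPM + 1) scale (x axis) with its 95% confidence interval, in normal livers (grey), non-tumours (green) and tumours (purple); no point is filled, as no adjusted p was under 0.05. The interval of Tgfbr2 in tumours lies wholly below 0, and Tgfb2 and Tgfb3 were under the filter in normal livers and non-tumours.

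In non-tumours, 0 of 8 genes tested differed between GKO and WT, where 0% of all genes were called and 5.8% had an unadjusted p under 0.05. Tgfb2 and Tgfb3 were under the filter of 0.5 TPM there and in normal livers. Tgfbr3 was above WT in all 3 GKO non-tumours, by 0.54 ± 0.30 (SE, limma, adjusted p 0.643), by 0.70 with the samples centred on their medians and by 0.21 without WT non-tumour 2, where 13.2% of all genes had groups that did not overlap. In normal livers, 0 of 8 were called, where 0% of all genes were called, 3.96% had an unadjusted p under 0.05 and 7.95% had groups that did not overlap. Tgfbr2 (0.18 ± 0.17) and Tgfbr3 (0.33 ± 0.19) were above WT in GKO normal livers without overlap, both with an adjusted p of 0.999 (limma), and centring on the medians left 0.09 for Tgfbr2. Marker sums of 3 other cell types were also above those of WT in GKO normal livers, without overlap. Endothelial markers summed to 103 to 118 TPM against 54.2 to 62.6 TPM in WT, stellate cell markers to 224 to 410 TPM against 92.7 to 190 TPM, and mesothelial markers to 7.15 to 9.89 TPM against 0.347 to 1.25 TPM. Their part in the values of Tgfbr2 and Tgfbr3 was not tested. Of the 3 genes with a miR-181 site, Tgfbr1, Tgfbr3 and Smad7, none was called between genotypes in any of the 3 tissues by limma, nor had any an unadjusted p under 0.05 there.

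To describe the DEN-treated liver around tumours, non-tumours were compared with normal livers. Non-tumours came from livers that had been given DEN and also held tumours, so these 2 factors cannot be told apart here. These comparisons share the non-tumour samples with the tumour comparisons. In 12 samples with a term for genotype, 0 of 8 genes were called, where 0.4% of all genes were called, and 4 of 8 had an unadjusted p under 0.05, all higher in non-tumours, where 20.8% of all genes did. These were Tgfbr2 (0.71 ± 0.23 SE, adjusted p 0.146), Tgfb1 (0.62 ± 0.20, adjusted p 0.149), Smad4 (0.54 ± 0.19, adjusted p 0.158) and Smad2 (0.55 ± 0.20, adjusted p 0.175). The median of all genes tested was 0.21 higher in non-tumours, and with the samples centred on their medians the 4 differences were 0.46, 0.38, 0.30 and 0.31 in the same order. By group mean, macrophage markers went the same way. All 11 tested had a difference above 0, with a median of 1.13, 0 called and 6 with an unadjusted p under 0.05 (limma). The sum of the 12 listed was 144 to 251 TPM in WT and 172 to 439 TPM in GKO normal livers, against 222 to 818 and 261 to 1229 TPM in the corresponding non-tumours, and its part was not tested. Of the WT non-tumours, number 2 had the lowest sum (222 TPM) and the lowest Tgfb1. It also had the highest Tgfbr2 (7.30 TPM), Smad2 (5.66 TPM) and Smad4 (10.4 TPM) of that group. Of the GKO non-tumours, number 1 had the highest sum (1229 TPM) and the highest values of all 4 genes. Without GKO non-tumour 2, Tgfbr2 passed the threshold (0.86, limma, adjusted p 0.0426).

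Within WT, 0 of 8 genes were called by limma, where 0.00744% of all genes were called (1 gene). Tgfbr2 (1.14 ± 0.27 SE, unadjusted p 0.00391, adjusted p 0.122), Tgfb1 (0.75 ± 0.30, unadjusted p 0.0405) and Smad3 (0.43 ± 0.16, unadjusted p 0.0329) were above normal livers without overlap. This stood beside 33.9% of all genes without overlap, 24.4% with an unadjusted p under 0.05 and a median of all genes 0.32 higher in WT non-tumours. Centred on the medians, the 3 differences were 0.76, 0.37 and 0.05, and without WT normal liver 2 that of Tgfb1 was 0.43. Within GKO, 0 of 8 were called, where 0% of all genes were called and 5.2% had an unadjusted p under 0.05, and Smad4 alone was above normal livers without overlap (0.62 ± 0.27, adjusted p 0.959, and 0.35 without GKO normal liver 3), where 8.73% of all genes had groups that did not overlap.

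Genes that respond to TGF beta are a readout of the pathway as well as of other inputs. In tumours against non-tumours of both genotypes, 13 of the 21 tested of a list of 22 rose and 1 fell, where 20.1% of all genes were called and 12.2% as higher. On the log2(TPM + 1) scale the largest rises were in Cdkn2b, a cell cycle inhibitor (3.75), and the collagen Col1a1 (3.06). Next came Acta2, a smooth muscle actin (2.90), and the collagen Col3a1 (2.38). The adjusted p of these genes ran from 0.000526 to 0.00220 (limma). Nox4, an NADPH oxidase, fell by 2.02 (adjusted p 0.00833). The list's median was 1.21 against 0.08 over all genes tested. Without both WT non-tumour 2 and WT tumour 3, 11 rose and 1 fell.

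Cdkn2b was at 37.7, 45.2 and 23.3 TPM in the WT tumours, and GKO tumours had 8.88, 53.3 and 13.9 TPM. In non-tumours it was at 0.175, 7.75 and 0.344 TPM in WT, with the high value in WT non-tumour 2, and at 0.459, 0.643 and 0.803 TPM in GKO. All tumours exceeded all non-tumours. In GKO tumours against GKO non-tumours 11 of 21 rose and 1 fell, where 11.7% of all genes were called and 7.75% as higher. In WT, where 4.23% were called and 2.16% as higher, 2 of 21 rose, Cdkn2b (3.87) and Ccn2, a matricellular protein (1.36), whereas 13 of 21 had an unadjusted p under 0.05, against 19.9% of all genes. The count in WT rose to 11, with 2 that fell, without WT non-tumour 2 and WT tumour 3, and was 0 without WT non-tumour 1 or 3 or WT tumour 1 or 2. The count in GKO was 5, with 0 that fell, without GKO non-tumour 3. The interaction called 0 of 21 (limma, 7 with an unadjusted p under 0.05, against 10.5% of all genes), and GKO against WT tumours called 0 of 21 (5 with an unadjusted p under 0.05, against 8.87% of all genes).

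**Figure D4:**
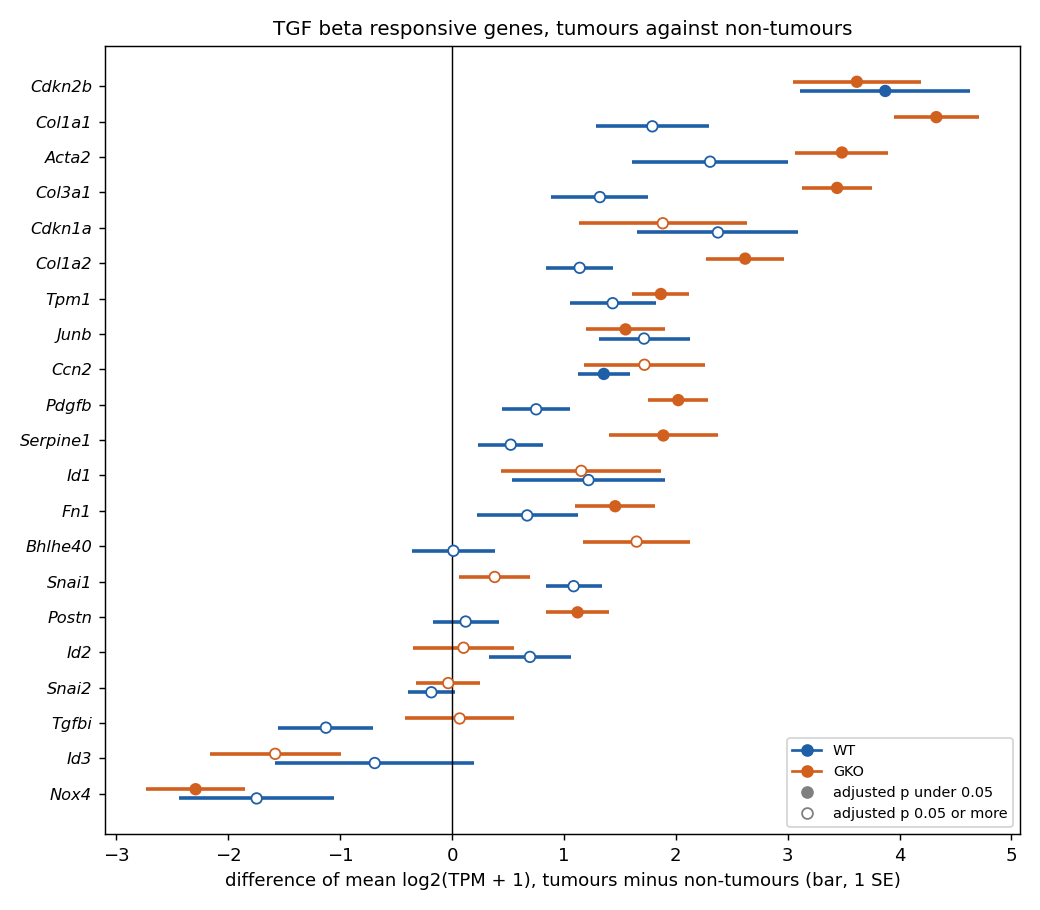
Fitted difference of the 21 tested TGF beta responsive genes between tumours and non-tumours on the log2(TPM + 1) scale (x axis; bars, 1 SE), in WT (blue) and GKO (orange), ordered by the difference over both genotypes; filled points have an adjusted p under 0.05. Cdkn2b is at the top and Nox4 at the bottom, and 11 genes in GKO and 2 in WT are filled to the right of 0.

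Of the genes that hold TGF beta latent or release it, 3 of 10 tested rose in tumours of both genotypes and 1 fell. Without both WT non-tumour 2 and WT tumour 3 it was 4 and 1. The higher calls numbered 2 with median centring, quantile normalization or the replicate block, and 2 to 4 with a sample left out. Over all genes 20.1% were called and 12.2% as higher, which is also the background of the counts that follow. The matrix protein Thbs1 (0.97 on the log2(TPM + 1) scale), the protease Mmp14 (0.88) and the integrin chain Itgav (0.53) were higher, and decorin, Dcn, which binds the ligand, fell by 1.81 (limma, adjusted p from 0.00750 to 0.0326). Of 11 other receptors and co-receptors tested, 1 rose, Acvrl1 (0.65, adjusted p 0.0201), an endothelial receptor for BMP9 and BMP10, whose call was lost without GKO non-tumour 3. Without both libraries 2 rose. Among 18 other Smads and Smad regulators, the co-repressor Tgif1 rose (0.60, adjusted p 0.0258) and the BMP Smad Smad9 fell by 0.81 (adjusted p 0.0223), against 2 higher and 1 lower without both libraries. No gene of this list was higher with median centring, with quantile normalization, or without WT non-tumour 3, GKO non-tumour 1 or GKO tumour 2, so that Tgif1 lost its call there, and none was lower without WT non-tumour 1.

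Activin and BMP ligands and their inhibitors moved in both directions, with 3 of 15 tested higher and 3 lower, against 20.1% of all genes called. The lower calls numbered 2 with the replicate block, 1 to 4 with a sample left out and 5 without both WT non-tumour 2 and WT tumour 3. They numbered 1 without WT non-tumour 1 or 3, GKO non-tumour 1 or 3, WT tumour 1 or 2, or GKO tumour 1. The activin antagonist Fst (3.17 on the log2(TPM + 1) scale), the activin chain Inhbb (2.86) and Bmp7 (1.93) rose, while Gdf2, which encodes BMP9 (-1.20), the hepatocyte activin chain Inhbc (-1.09) and Bmp10 (-0.53) fell (limma, adjusted p from 0.00130 to 0.0449). Of 7 BMP responsive genes of the liver, 1 fell, Smad9, which is in both lists, and without both libraries 2 fell. In GKO against WT none of these lists had a called gene in any tissue (limma). At an unadjusted p under 0.05 no list had more than 5 genes in a tissue. The activin and BMP list had 3 of 14 in tumours, 2 of 15 in non-tumours and 4 of 15 in normal livers. Over all genes the share was 8.87% in tumours, 5.8% in non-tumours and 3.96% in normal livers. In normal livers the genes that hold or release TGF beta had 4 of 9, and the TGF beta responsive genes 4 of 20.

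Bulk tissue cannot tell a change in the number of cells of a type from a change in RNA per cell, so marker genes were summed in each sample. The summed level of 12 fibroblast markers was 48.6 to 91.2 TPM in WT tumours and 84.9 to 155 TPM in GKO tumours, against 14.4 to 37.5 TPM in WT non-tumours and 9.43 to 20.3 TPM in GKO non-tumours. Col1a1, Col1a2 and Col3a1 are in both the fibroblast and the TGF beta responsive list. Gli1, a fibroblast marker, was under 0.1 TPM in all samples of every group but GKO non-tumours. The fibroblast sums, Tgfbr2, Tgfb2 and Tgfb3 were thus all higher in tumours than in non-tumours. Between the tumour groups they did not all go the same way. The mean fibroblast sum was 125 TPM in GKO and 69.8 TPM in WT tumours, and Tgfb2 and Tgfb3 were also higher by mean in GKO. Tgfbr2 was lower in GKO tumours (11.7 against 27.2 TPM).

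The sum of 14 endothelial markers was 121 to 147 TPM in WT tumours and 51.6 to 123 TPM in WT non-tumours, but overlapped fully in GKO (82.2 to 172 against 126 to 148 TPM). Over both genotypes 20.1% of all genes were called and 12.2% as higher, which is the background of the marker counts here. In this comparison 3 of 13 endothelial markers tested rose, the adhesion genes Pecam1 (1.29 on the log2(TPM + 1) scale) and Cdh5 (1.30) and the VEGF receptor Kdr (0.76), and 8 of 13 differences were above 0, with a median of 0.11. Within WT 12 of 13 were above 0, with a median of 0.53 against -0.02 over all genes tested. In GKO 5 of 14 were above 0, with a median of -0.22 against 0.20 over all genes tested. The sum of 14 stellate cell markers was 27.3 to 60.7 TPM in WT tumours, below the 66.0 to 141 TPM of GKO tumours, and 42.9 to 214 and 205 to 309 TPM in the corresponding non-tumours. The sum of 12 macrophage markers was 157 to 321 TPM in WT and 196 to 445 TPM in GKO tumours, and 222 to 818 and 261 to 1229 TPM in non-tumours. Over both genotypes 6 of 10 fibroblast markers tested rose, and 5 of 12 stellate cell and 4 of 11 macrophage markers tested fell. The sum of 10 hepatocyte markers was 175436 to 211082 TPM over all tumours and 62715 to 91463 TPM over all non-tumours, with 3 of 10 called, albumin (Alb, 1.70 on the log2(TPM + 1) scale), Apoa1 (1.34) and Serpina1a (1.38), 6 of 10 differences above 0 and a median of 0.30. The part of these shifts in the values of the 10 genes was not tested.

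**Figure D5:**
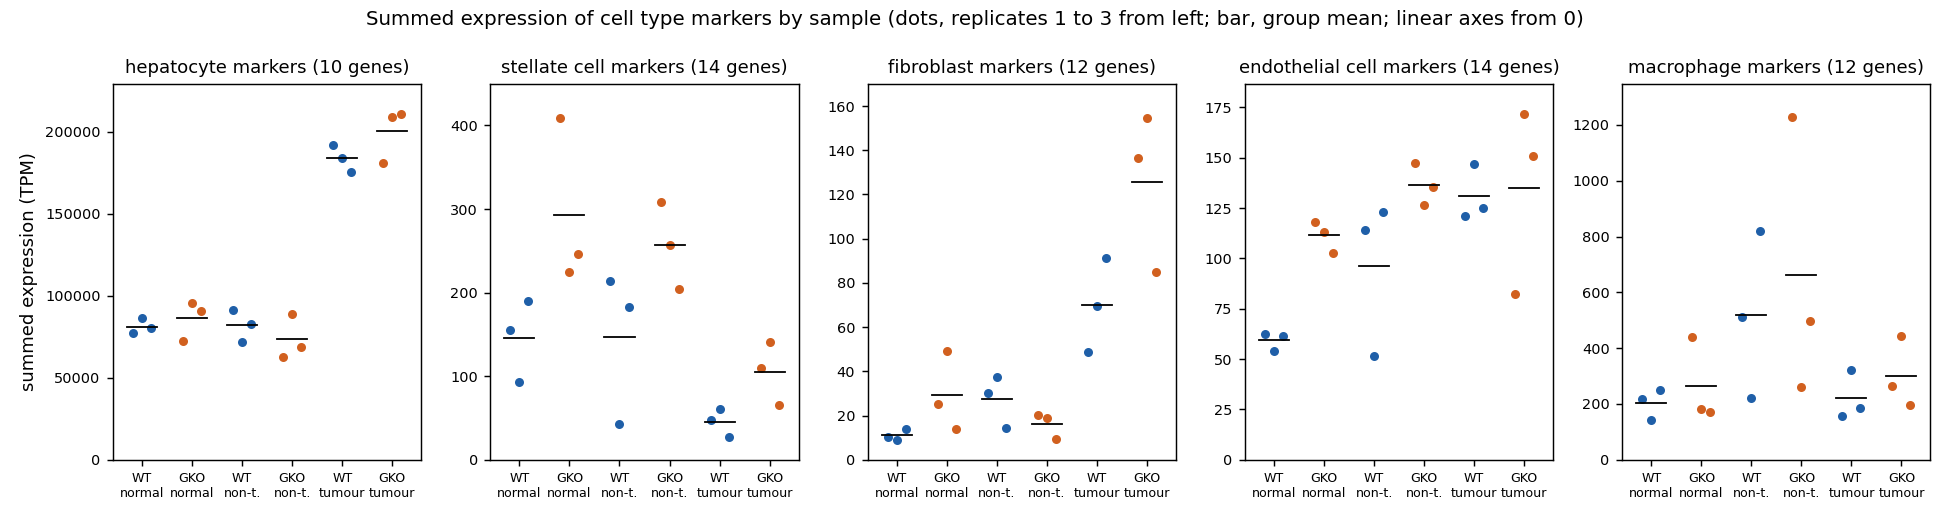
Summed TPM of marker genes of 5 cell types (y axes, linear and from 0) in the 6 groups, with a dot for each sample and a bar for the group mean; blue is WT and orange is GKO. Hepatocyte and fibroblast sums of all 6 tumours lie above those of all 6 non-tumours, and stellate cell sums of the 3 WT tumours lie below those of the 3 GKO tumours.

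The genes whose levels were most like those of the 10 genes, Smad4 left out, by Pearson correlation of log2(TPM + 1) over the 18 samples among the 11897 genes that averaged 1 TPM or more, are given as a description, since the samples share tissue type and genotype. For Tgfbr2 they were Vasp (r = 0.977), Clip2 (0.976) and Tpm1 (0.976), the last of them on the TGF beta responsive list. For Tgfb1 they were Rgs19, Gltp and Cotl1 (0.905 to 0.919), for Tgfb2 Mfge8, Prss23 and Map4k4 (0.931 to 0.933), and for Tgfb3 Pecam1, Dbn1 and Vim (0.914 to 0.923). For Tgfbr1 they were Mis12, Ccm2 and Glmp (0.851 to 0.865), and for Tgfbr3 Lrrc32, Slc43a3 and Chst15 (0.852 to 0.859), of which Lrrc32 encodes GARP, a surface anchor of latent TGF beta.

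For Smad2 the 3 most alike were Dcun1d5, Mettl13 and Rab35 (0.957 to 0.959), for Smad3 Actn4, Pcyox1l and Bok (0.930 to 0.950), and for Smad7 Hdc, Gm47772 and Smad6, the other inhibitory Smad (0.787 to 0.788). Among the 10 genes themselves the closest pairs were Tgfb2 with Tgfb3 (r = 0.871) and Smad2 with Smad4 (0.864). Of the 30 nearest genes of all 10, 4 were again among the nearest 3 when the tumours were left out, and 10 when Spearman's rho was used.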

How the data were processed

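RNA was sequenced from 18 mouse liver samples in 6 groups of 3. Per the paper's methods and the submitters' processing notes, the authors aligned reads with STAR 2.7.3a to mm10, counted them with featureCounts 2.0.0, and deposited 1 table of TPM, in which each column sums to 1000000. From the TPM and GENCODE exon lengths, whole reads were recovered (97.95 to 98.67% of values of up to 30 reads lay within 0.02 of a whole number), giving 11925055 to 20751348 reads per library. For each comparison, limma 3.58.1 (R 4.3.3; lmFit, then eBayes with a trend, two-sided) was fitted to log2(TPM + 1) of the genes that averaged 0.5 TPM or more, and p-values were adjusted by Benjamini-Hochberg over all of them. Comparisons over both genotypes had a genotype term. The 10 genes and the gene lists were chosen with earlier results of these data known.

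All 10 genes are given in every sample. A fitted difference is printed where the adjusted or unadjusted p was under 0.05 or the groups did not overlap, except where stated. List genes are the called ones with the largest differences, up to 4 a list, while Nox4, Inhbc, Bmp10 and the single marker genes were named with their values seen. Alternatives tried were no filter, a pseudocount of 0.1, a filter of 5 TPM, 2 scalings, 1 fit of all 18 samples, eBayes without trend, a replicate block, voom on recovered reads, WT tumours 1 and 2 averaged, and each sample left out. Replicate numbers are shared by the groups. Deviations from the group means of same-numbered samples correlated at 0.101, 0.120 and 0.197 between WT and GKO tumours. No label states what a number marks, and WT and GKO tumours come from mice of different genotypes. The main test treated no samples as paired, and the replicate block was run only as an alternative. The test was checked on simulated data, with changes placed only in genes of higher expression. That check does not cover genes as low as Tgfb2 and Tgfb3. MicroRNA sequences are RefSeq's (GRCm38.p6), and UTRs are the longest of each gene's protein-coding transcripts in GENCODE M21. RNA of the T cell, B cell, cholangiocyte and mesothelial marker lists was summed too. The genes most like Smad4 are not reported here.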

Additional observations from a re-analysis of the deposited data

How the results depend on the processing

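The printed differences and interaction terms of the 10 genes kept their direction under every alternative run, whereas single genes of the lists were counted but their differences were not followed. In tumours against non-tumours of both genotypes, 4 genes were called, 2 with a filter of 5 TPM, where only 6 of the 10 genes were tested, and 3 to 5 with a sample left out. Tgfbr2, Tgfb2 and Tgfb3 kept their calls wherever they were tested, and Smad2 lost its call under 13 alternatives. In GKO tumours against non-tumours the 4 became 1 without a filter, 2 with a filter of 5 TPM, 2 with the replicate block, and 0 to 3 with a sample left out. In WT tumours against non-tumours the 1 call, Tgfbr2, became 0 without a filter and with WT tumours 1 and 2 averaged, and 0 to 1 with a sample left out. In non-tumours against normal livers of both genotypes the 0 became 0 to 1 with a sample left out. The cause of these changes was not tested. In every comparison between genotypes and in the interaction, 0 genes were called under all alternatives, the replicate block and voom included. Over both genotypes the replicate block called 3 genes. Replicate numbers were taken as shared numbers only, in every comparison. All 3 same-numbered pairs correlated above 0.1 only between WT and GKO tumours, where 5 of 6 samples correlated best with their own number. Between GKO non-tumours and GKO tumours all 6 samples did so, a hint from the data and not from the design. Voom on recovered reads called 2995 of all genes in tumours against non-tumours of both genotypes, and the main test 2829, against 1662 with a filter of 5 TPM. For GKO against WT tumours the replicate block left Tgfbr2 at -1.12 (limma, adjusted p 0.412). Counts over all genes differed by over 1.5 times in WT tumours against non-tumours: 592 in the main test, 297 without a filter, 361 with the replicate block, 185 with WT tumours 1 and 2 averaged and 1649 with all 18 samples in 1 fit. With a sample left out they ran from 163 to 1363. In GKO they were 1652, 589 without a filter, 1047 with a filter of 5 TPM and 2722 with all 18 samples in 1 fit. With a sample left out the GKO counts ran from 229, without GKO non-tumour 3, to 1567. GKO against WT tumours called 3 genes of all, 107 with all 18 samples in 1 fit and 147 without WT tumour 3, and non-tumours against normal livers of both genotypes 54, from 1 to 738 with a sample left out. Depth limits Tgfb2 and Tgfb3, with 0 to 24 and 3 to 21 reads in a non-tumour library.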

Other observations

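Marker sums of 4 further cell types did not follow the 10 genes in a single direction. The sum of 8 cholangiocyte markers was 375 to 623 TPM in WT tumours and 486 to 1523 TPM in GKO tumours, against 214 to 763 TPM in WT non-tumours and 144 to 236 TPM in GKO non-tumours. Gene by gene, 2 of 6 tested were above 0 in WT tumours against non-tumours (median -0.23) and 6 of 6 in GKO (median 0.91). Cftr, a chloride channel of bile duct cells, was under 0.1 TPM in all samples of every group but GKO tumours. The sum of 12 T cell markers was 4.55 to 32.3 TPM in WT tumours and 7.92 to 11.01 TPM in GKO tumours, and 7.36 to 34.3 and 15.003 to 28.6 TPM in the corresponding non-tumours. The sum of 9 B cell markers was 17.0 to 28.6 and 9.34 to 23.8 TPM in WT and GKO tumours, and 7.59 to 54.0 and 26.9 to 54.8 TPM in non-tumours. The sum of 6 mesothelial markers was at most 6.81 TPM in any tumour, 6.89 TPM in any non-tumour and 9.89 TPM in any normal liver.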
